A study of Mus musculus with 44 samples.

Results

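The 5 mouse dopamine receptor genes, Drd1, Drd2, Drd3, Drd4 and Drd5, were followed through RNA-seq of the nucleus accumbens, the ventral part of the striatum. They were found by gene symbol in both deposited count tables, and each table held all 5 among 55487 gene identifiers. Dopamine receptors are G protein-coupled receptors of 2 classes. The D1 class, Drd1 and Drd5, couples to stimulatory G proteins (Gs and the striatal Golf) and raises cyclic AMP, while the D2 class, Drd2, Drd3 and Drd4, couples to inhibitory G proteins (Gi and Go) and lowers it. In the striatum, Drd1 and Drd2 mark largely separate sets of spiny projection neurons, the neurons of the direct and the indirect pathway. Drd3 is best known from the ventral striatum, Drd5 is found in striatal cholinergic interneurons among other cells, and Drd4 is best known from the retina and the cortex.

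The study delivered RXRa (retinoid X receptor alpha), which pairs with retinoic acid receptors and other nuclear receptors to bind DNA, or a fluorescent protein, by viral infusion. Bulk tissue came from males with a herpes simplex virus vector, HSV-GFP in 4 libraries and RXRa with GFP in 4. D1 and D2 libraries came from animals with an AAV9 vector under the CAG promoter, AAV9-CAG-DIO-EGFP or AAV9-CAG-DIO-EGFP-P2A-RXRa. DIO marks an insert that is turned on only where Cre recombinase is present. The labels give the cell type as D1 or D2. They do not name the Cre line, the sorting step, whether nuclei or whole cells were used, the animals' age or the number of animals in a library. The groups of EGFP and RXRa libraries numbered 5 and 4 in D1 females, 5 and 4 in D1 males, 4 and 4 in D2 females, and 5 and 4 in D2 males. Nothing says that replicates came from separate animals, so p-values measure the spread between these libraries, which may be partly technical. Bulk libraries held 21567565 to 29167142 counts each, and the 35 D1 and D2 libraries 12211655 to 27757463. Levels are given as CPM, counts scaled to library size with TMM. Bulk and D1 or D2 levels were not tested against each other because the libraries were made differently. Where they stand side by side below, and where bulk counts serve to choose silent genes, that difference remains.

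In bulk tissue Drd1 and Drd2 were among the more abundant messages, Drd3 and Drd5 were far lower, and Drd4 was near the limit of detection. Between genes, levels were compared per kb of merged exon. Over the 8 bulk libraries Drd2 averaged 74.6 ± 8.82 CPM per kb (SD, n = 8) and Drd1 62.1 ± 6.91. Of 21903 protein-coding genes, 97.7% had a lower bulk level per kb than Drd2 and 97.1% a lower one than Drd1. Drd3 averaged 4.52 ± 0.622 CPM per kb, above 60.2% of protein-coding genes. Drd5 averaged 0.633 ± 0.117 CPM per kb and Drd4 0.0983 ± 0.0415, above 38.5% and 28.9% of them. The lowest Drd2 library, at 65.6 CPM per kb, lay below the highest Drd1 library, at 76.6, so this pair of neighbours in the order overlapped. The other neighbours in the order did not overlap: Drd3 ran from 3.83 to 5.78 CPM per kb, Drd5 from 0.493 to 0.809 and Drd4 from 0.0461 to 0.163. In raw counts Drd5 had 36 to 69 per bulk library and Drd4 had 4 to 16.

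**Figure D1:**
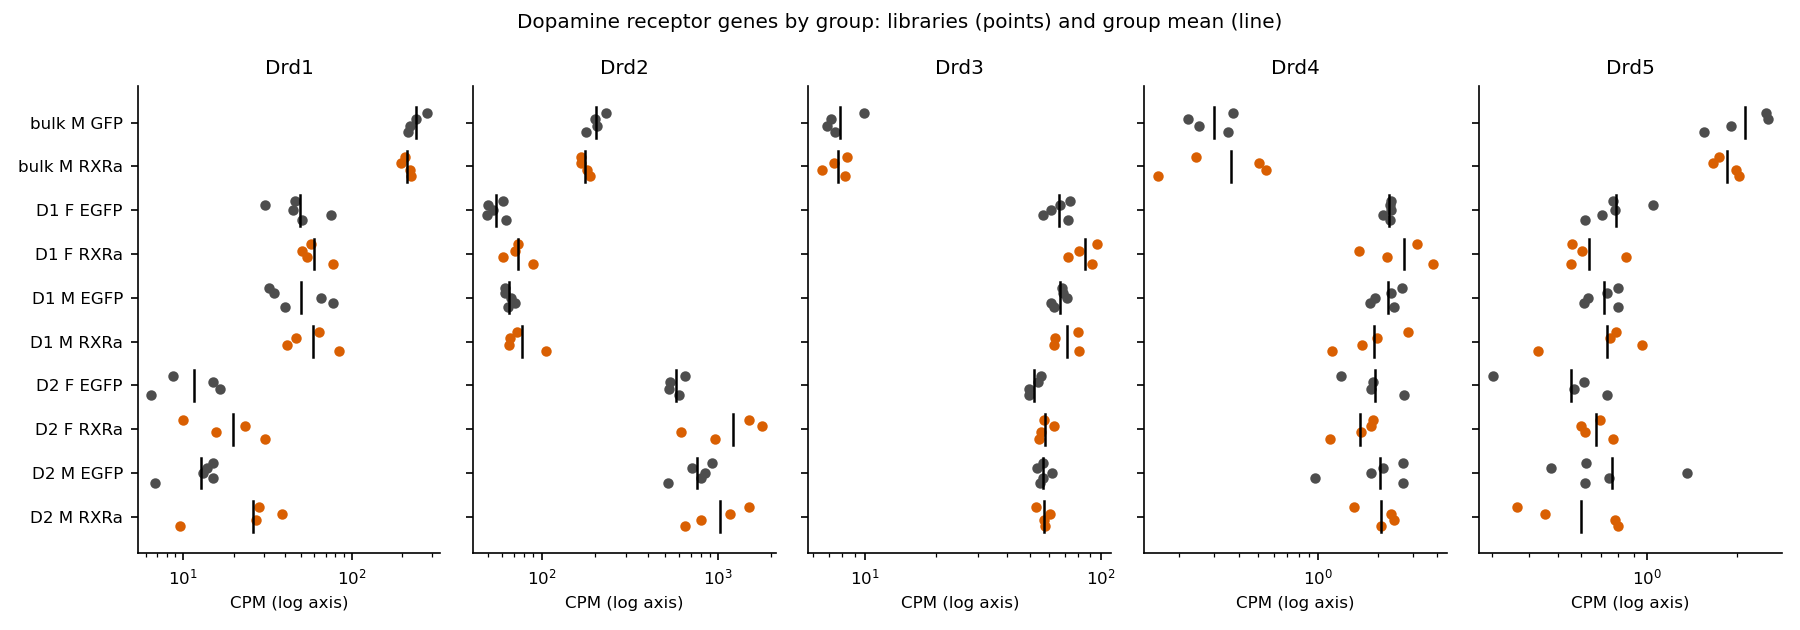
CPM of each receptor gene (log axis) in every library, by group, where F is female and M is male. Grey points are control vector libraries, orange points RXRa libraries, and the black line is the group mean. Drd1 and Drd2 separate D1 from D2 libraries, while Drd4 and Drd5 lie at similar levels in all D1 and D2 groups.

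The gene models differ in a way that bears on the low receptors. Drd2 (ENSMUSG00000032259) spans chr9:49340627-49408177 on the plus strand of GRCm38, a gene body of 67.6 kb with 2.55 kb of merged exon. Drd3 (ENSMUSG00000022705) spans chr16:43754026-43822932 on the plus strand, 68.9 kb with 1.71 kb of exon. The other receptors are compact. Drd1 (ENSMUSG00000021478) lies at chr13:54051183-54055705 on the minus strand, Drd4 (ENSMUSG00000025496) at chr7:141292006-141296464 on the plus strand, and Drd5 (ENSMUSG00000039358), a gene of 1 exon, at chr5:38319367-38322518 on the plus strand. Their gene bodies are 4.52, 4.46 and 3.15 kb long. The exon of Drd5 overlaps the antisense gene Gm26560 by 1531 bases. The use of strand in counting is not given in the sources used here, so the Drd5 values are uncertain.

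Reads from genes that are not expressed set a floor for these genes in the D1 and D2 libraries. To measure that floor, 1576 protein-coding genes on autosomes, each 5 kb or longer and without a single bulk count, were taken as silent. The median of their CPM per kb of gene length, introns included, is the silent-gene density of a library. It ranged from 0.379 to 0.539 CPM per kb in the 18 D1 libraries and from 0.385 to 0.565 in the 17 D2 libraries. Counts of the silent genes followed the length of the gene body, with a slope of 0.94 on the log2 scale, and hardly the length of the exons, with a slope of 0.09. A gene body as long as those of Drd2 and Drd3 would collect, at this density, 28.5% to 72.6% of the Drd2 level and 28.6% to 59.3% of the Drd3 level measured in D1 libraries. In bulk the silent genes are at 0 by their definition, so the measure does not apply there. Silent genes vary around their median, so each receptor was also set against the 95th percentile of the silent genes in the same library.

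By gene body length, Drd1 stood above this background in every D1 and D2 library. Per kb of gene body, Drd1 was 12.6 to 44.9 times the silent-gene density in D1 libraries, with a median of 23.3. In D2 libraries it was 2.83 to 17.8 times the density, with a median of 6.33. All 18 D1 and all 17 D2 libraries had Drd1 above the 95th percentile of silent genes, also with silent genes of at least 1 kb. Set against merged exon length in place of gene body length, which the silent genes hardly followed, this held in 7 of 18 D1 and 0 of 17 D2 libraries. Drd1 reads in D2 libraries were thus above the background, at a level below that of any D1 library when set against the density except for the 5 highest D2 libraries, all of them RXRa libraries.

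Drd2 in D1 libraries lay close to the background, and in D2 libraries far above it. In D1 the ratio to silent-gene density was 1.38 to 3.50, with a median of 1.85, and 15 of 18 libraries were above the 95th percentile. The 3 that were not were EGFP females 2, 3 and 4, at ratios of 1.49, 1.51 and 1.38. With silent genes of at least 1 kb, 12 of the 18 D1 libraries were above the 95th percentile. In D2 the ratio was 14.4 to 68.2, with a median of 21.7, and all 17 libraries were above the 95th percentile. Background at the silent-gene density would make up 45.7% to 72.6% of the Drd2 level in the 10 D1 EGFP libraries, with a median of 57.0%. In the 9 D2 EGFP libraries the same share was 3.50% to 6.95%.

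Drd3, like Drd2, has a long gene body. Its 66.3 ± 5.62 CPM (SD, n = 10) in D1 EGFP libraries was above the 49.7 ± 17.2 CPM of Drd1 there, but per kb of gene body it was 1.69 to 3.49 times the silent-gene density over the 18 D1 libraries, with a median of 1.95. All 18 D1 libraries had Drd3 above the 95th percentile of silent genes. In D2 the ratio was 1.35 to 2.37, with a median of 1.61, and 7 of 17 libraries passed the 95th percentile. With silent genes of at least 1 kb, Drd3 passed it in 12 of 18 D1 and 2 of 17 D2 libraries. Background would make up a median of 54.1% of the Drd3 level in D1 EGFP libraries and 67.1% in D2 EGFP libraries.

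Drd4 and Drd5 did not pass the 95th percentile of silent genes in D1 or D2 libraries, with 1 exception for Drd4. Drd4 was 0.570 to 2.24 times the silent-gene density in D1 libraries, with a median of 0.992, and 0.395 to 1.25 times in D2, with a median of 0.870. Only D1 RXRa female 1, at 3.79 CPM, had Drd4 above the 95th percentile. Drd5 was 0.293 to 0.620 times the density in D1 and 0.170 to 0.819 times in D2, below the silent-gene median in all 35 libraries. Both genes are shorter than the silent genes used, whose minimum is 5 kb. With silent genes of at least 1 kb, none of the 35 libraries had either gene above the 95th percentile.

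**Figure D2:**
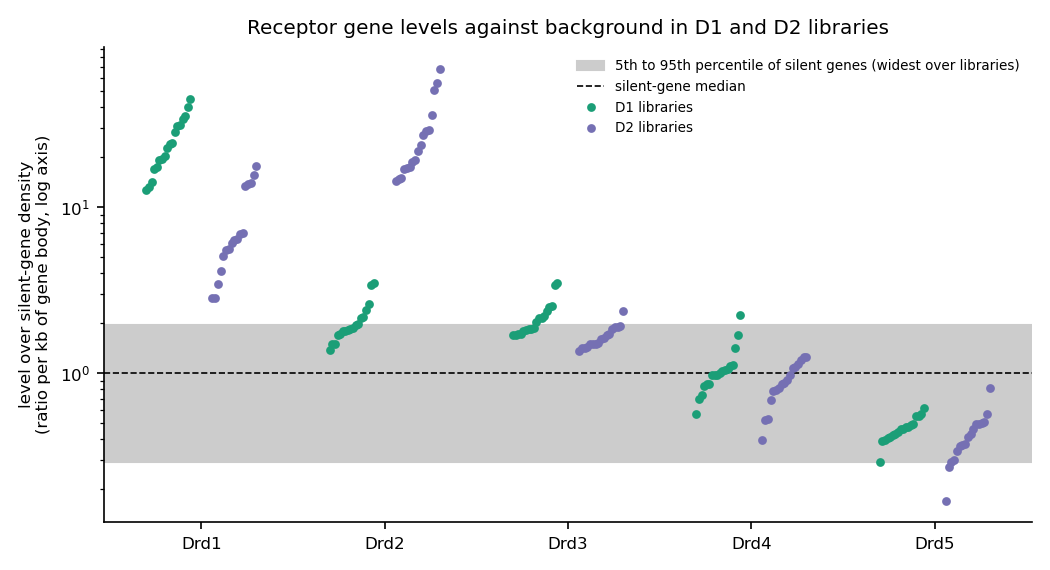
Level of each receptor gene per kb of gene body divided by silent-gene density (log axis) in every D1 (green) and D2 (purple) library. The grey band is the widest 5th to 95th percentile range of the silent genes over the libraries, and Drd4 and Drd5 lie inside or below it in all libraries but D1 RXRa female 1 for Drd4.

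D2 libraries were first compared with D1 libraries under the control vector. For Drd1 and Drd2, after which the populations are named, this checks the labels. Drd1 had 30.6, 45.7 and 77.1 CPM as the lowest, median and highest of 10 D1 EGFP libraries, and 6.48, 13.8 and 16.5 CPM among 9 D2 EGFP libraries. Drd2 had 48.9, 62.0 and 71.1 CPM in D1, and 519, 652 and 927 CPM in D2. Neither gene overlapped between the populations. Drd3 had 56.5, 67.6 and 73.8 CPM in D1 and 49.3, 54.9 and 61.7 CPM in D2, and its groups overlapped.

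By the edgeR quasi-likelihood test, 3 of the 5 receptors differed between D2 and D1 under EGFP, where 0.121% of the 43902 genes tested were called at a Benjamini-Hochberg adjusted p under 0.05. Drd2 was higher in D2 by 3.47 on the log2 scale (SE 0.160, edgeR adjusted p = 1.75e-17). Drd1 was lower in D2, at -2.03 (SE 0.242, edgeR adjusted p = 2.85e-06). Drd3 was also lower in D2, at -0.29 on the same scale (SE 0.0603, edgeR adjusted p = 0.0302). This call for Drd3 did not hold when RLE replaced TMM (edgeR adjusted p = 0.0757). It was lost in 13 of the 19 fits that left out 1 library, with an adjusted p of 0.00986 to 0.117 over those fits. Drd4 and Drd5 had log2 fold changes of -0.17 and -0.23 (edgeR adjusted p = 0.715 and 0.655).

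Subtracting a similar background from both populations widens a ratio by arithmetic, so the wider folds below are no further evidence of a difference. On CPM means that weight the sexes equally, Drd2 was 11.1-fold higher in D2 as measured and 24.6-fold higher after the silent-gene density times the gene body length was taken away. The latter rests on the 25.8 CPM of Drd2 left in D1, and the spread of silent genes around their median was not carried into it. For Drd1 the D1 level was 4.06-fold the D2 level as measured and 4.82-fold after subtraction. Drd3 was 1.22-fold higher in D1 as measured and 1.75-fold after subtraction, 31.3 against 17.9 CPM. Drd4 and Drd5 gave no fold after subtraction, since 8 and 0 of the 19 EGFP libraries kept a value above 0.

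The labelled cell types were also checked against other markers. All 4 measured D2 neuron markers, Penk, Adora2a, Gpr6 and Sp9, were higher in D2 under EGFP, where 0.121% of all genes were called. Of 6 D1 neuron markers, Isl1, Pdyn and Slc35d3 were lower in D2, and Tac1, Chrm4 and Eya1 did not pass the test. Summed D2 neuron markers ran from 45.0 to 165 CPM in D1 EGFP libraries and from 242 to 835 CPM in D2 EGFP libraries. How far D2 cells contribute to the Drd2 reads of D1 libraries was not tested.

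Under RXRa the same 3 receptors were called between the populations, where 8.38% of all genes tested were called. Drd2 was higher in D2 by 3.88 on the log2 scale (SE 0.180, edgeR adjusted p = 2.51e-17). Drd1 and Drd3 were lower in D2, at -1.40 (SE 0.249, edgeR adjusted p = 0.00229) and -0.44 (SE 0.0652, edgeR adjusted p = 0.00013). Drd3 had 63.0 to 96.4 CPM in D1 RXRa libraries and 53.0 to 63.1 CPM in D2 RXRa libraries, so its groups overlapped. Drd4 and Drd5 did not pass the test (edgeR adjusted p = 0.373 and 0.796). The same D1 and D2 RXRa libraries enter the RXRa comparisons that follow. Each of these 3 calls held in all 16 fits without 1 library and in the 8 other settings.

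RXRa was compared with EGFP within each population, to see whether it moved the receptor genes there. In D2 libraries Drd1 and Drd2 were both higher with RXRa, by 0.89 (SE 0.254) and 0.75 (SE 0.156) on the log2 scale over both sexes (edgeR adjusted p = 0.0173 and 0.0111). These 2 of 5 receptors were called where 22.1% of the 43902 genes tested were called. Drd3, Drd4 and Drd5 had log2 fold changes of 0.08, -0.11 and 0.01 (edgeR adjusted p = 0.370, 0.699 and 0.987).

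The D2 libraries of a group differed widely. In D2 females Drd2 had 598, 527, 532 and 652 CPM with EGFP and 958, 614, 1776 and 1491 CPM with RXRa. In D2 males Drd2 had 519, 804, 844, 717 and 927 CPM with EGFP and 647, 802, 1171 and 1501 CPM with RXRa. So 3 of 4 female and 2 of 4 male RXRa libraries lay above all controls of their sex. In D2 females Drd1 had 6.48, 16.5, 15.0 and 8.73 CPM with EGFP and 30.8, 15.6, 23.2 and 9.95 CPM with RXRa. In D2 males Drd1 had 6.84, 15.1, 13.1, 13.8 and 15.1 CPM with EGFP and 9.55, 27.2, 38.5 and 28.0 CPM with RXRa. Here 2 of 4 female and 3 of 4 male RXRa libraries lay above all controls. The libraries that were high were not always the same for both genes. RXRa female 5 had the second highest Drd2 of its group and the lowest Drd1, and RXRa female 2 the reverse order, with the highest Drd1 and the second lowest Drd2.

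Both calls were lost in some fits. Without D2 RXRa female 4 the log2 fold changes were 0.83 for Drd1 and 0.61 for Drd2 (edgeR adjusted p = 0.0669 and 0.0568), and the count over all genes fell from 9683 to 0. Without D2 RXRa male 5 Drd1 was at 0.85 (edgeR adjusted p = 0.0525). Over the 17 fits that left out 1 library, Drd1 ran from 0.74 to 1.03 and Drd2 from 0.61 to 0.86. Silent-gene density moved with the vector: its group means were 0.532 and 0.528 CPM per kb in D2 EGFP females and males, and 0.462 and 0.457 in the RXRa groups. With the log2 density of each library as a covariate, the log2 fold changes were 0.51 for Drd1 and 0.26 for Drd2 (edgeR adjusted p = 0.915 for both), and 0 genes were called in all. With library totals in place of TMM, the median of all genes in this contrast was at -0.20 on the log2 scale, and the calls of all genes turned from 6548 higher and 3135 lower to 2063 higher and 9325 lower. On that scale Drd1 was at 0.71 and Drd2 at 0.55, still higher with RXRa (edgeR adjusted p = 0.0252 and 0.0113).

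Within a sex no receptor was called in D2, where 0% of genes were called by edgeR in either sex, with 11079 genes in females and 8657 in males at an unadjusted p under 0.05. DESeq2 called 3672 genes in females and 23 in males, and limma voom 0 and 1. In females the log2 fold changes were 1.07 for Drd2 (SE 0.228, edgeR adjusted p = 0.0954) and 0.77 for Drd1 (SE 0.371, edgeR adjusted p = 0.189). With DESeq2 the female Drd2 change was called (adjusted p = 0.0294). In males they were 0.43 for Drd2 (SE 0.213, edgeR adjusted p = 0.253) and 1.01 for Drd1 (SE 0.346, edgeR adjusted p = 0.184). Some fits without 1 library did call a receptor. Drd2 was called in females in 1 of 8 such fits (lowest edgeR adjusted p = 0.0161). Drd1 was called in males in 1 of 9 (lowest edgeR adjusted p = 0.0193). Over these fits the count of all genes called ran from 0 to 6701 in females and from 0 to 5985 in males. The difference of the RXRa effect between the sexes was not called for any receptor in D1 or D2, where 0% of genes were called (edgeR, 913 and 1327 genes at an unadjusted p under 0.05; DESeq2 2 and 0 genes, limma voom 0 and 0).

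In D1 libraries no receptor was called with RXRa, and 0% of genes were called over both sexes by edgeR, DESeq2 and limma voom (edgeR: 3522 genes at an unadjusted p under 0.05). Drd1 had 41.6, 55.8 and 83.7 CPM as the lowest, median and highest of 8 RXRa libraries, which overlaps the EGFP range given above. The log2 fold changes were 0.26 for Drd1 (SE 0.225), 0.33 for Drd2 (SE 0.153) and 0.23 for Drd3 (SE 0.0612), with edgeR adjusted p of 0.746, 0.598 and 0.506. The unadjusted edgeR p was 0.0364 for Drd2 and 5.59e-04 for Drd3. The Drd3 log2 fold change was 0.36 in females (SE 0.0864, edgeR adjusted p = 0.719) and 0.10 in males (SE 0.0868, edgeR adjusted p = 0.978), and the difference between the sexes was not called (edgeR adjusted p = 1.00). Its unadjusted edgeR p was 0.0421. D1 RXRa females had 91.3, 72.2, 80.4 and 96.4 CPM of Drd3 against 56.5 to 73.8 CPM in the EGFP females, so 3 of the 4 lay above all 5 controls. Of the sexes taken alone, edgeR called 0 genes in each, with 2761 in females and 1326 in males at an unadjusted p under 0.05 (DESeq2 4 and 0, limma voom 0 and 0).

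The RXRa effect was also compared between the populations. The effect in D2 minus that in D1 was 0.63 for Drd1 (SE 0.340) and 0.42 for Drd2 (SE 0.219), each with an edgeR adjusted p of 0.602, and for Drd3 it was -0.15 (SE 0.0886, edgeR adjusted p = 0.603). No receptor was called, and 0% of all genes were, with 3607 at an unadjusted p under 0.05 by edgeR and 0 genes called by DESeq2 and limma voom. The call of Drd1 and Drd2 in D2 and its absence in D1 is therefore not shown to be a difference between the populations.

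**Figure D3:**
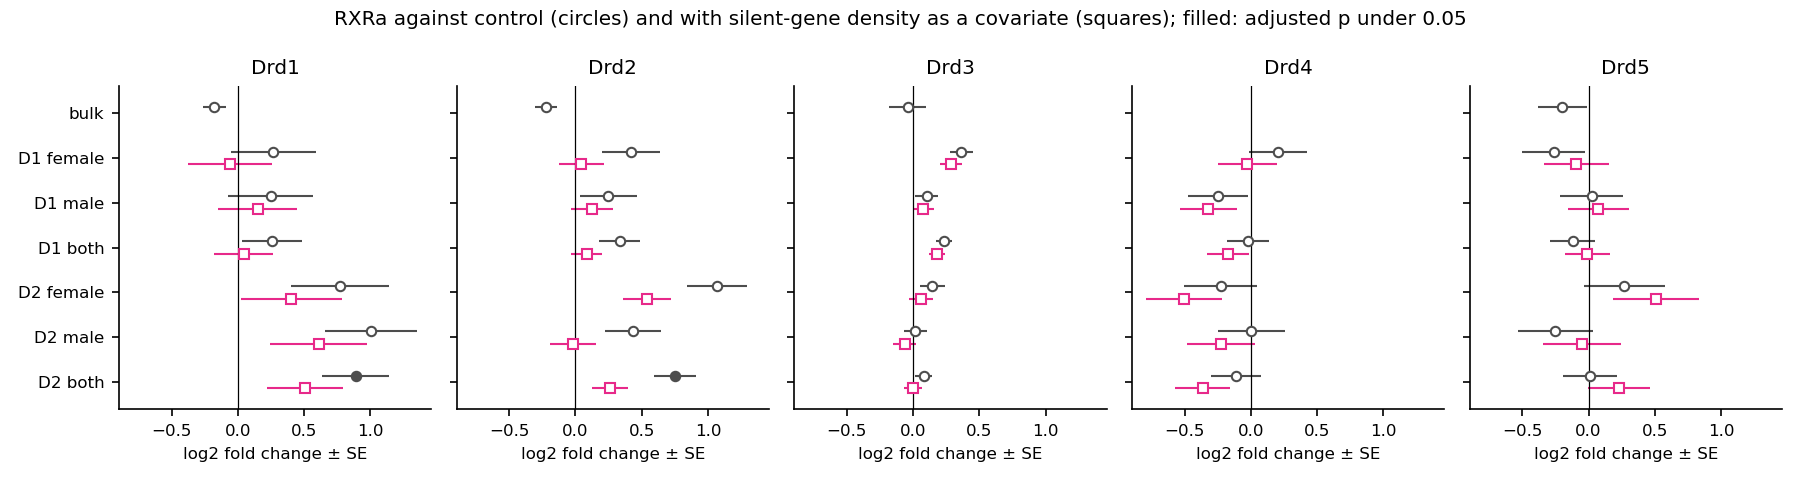
Log2 fold change of RXRa over control with its SE for each receptor gene in bulk, D1 and D2. Circles are the fits as described and squares those with silent-gene density as a covariate (D1 and D2 only), and filled symbols have an edgeR adjusted p under 0.05, which only the Drd1 and Drd2 circles of D2 over both sexes reach. Drd4 has no bulk value because it did not pass the filter on low counts.

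In bulk tissue no receptor was called with RXRa, where 3.70% of 18579 genes tested were called. Drd1 had 217, 220, 241 and 278 CPM with GFP and 224, 221, 195 and 206 CPM with RXRa. Drd2 had 178, 206, 202 and 233 CPM with GFP and 187, 180, 167 and 167 CPM with RXRa. For each gene 2 of the 4 RXRa libraries lay below all GFP libraries and the other two overlapped them. The log2 fold changes were -0.18 for Drd1 (SE 0.0858, edgeR adjusted p = 0.275) and -0.22 for Drd2 (SE 0.0820, edgeR adjusted p = 0.164, unadjusted p = 0.0234). DESeq2 and limma voom also called 0 receptors in bulk. In bulk samples fewer cells of a type and less RNA per cell cannot be told apart.

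The low receptors in bulk did not pass the test either. Drd3 had 6.91 to 9.89 CPM with GFP and 6.56 to 8.38 CPM with RXRa, at -0.04 on the log2 scale (SE 0.140, edgeR adjusted p = 0.905). Drd5 had 1.55 to 2.55 CPM with GFP and 1.66 to 2.03 CPM with RXRa, at -0.20 (SE 0.186, edgeR adjusted p = 0.583). Drd4 had 10, 7, 6 and 10 counts with GFP and 4, 16, 11 and 6 counts with RXRa. It failed the filter on low counts, and without the filter its log2 fold change was 0.27 (SE 0.409, edgeR adjusted p = 0.793).

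Markers of neurons and other cells also varied between bulk libraries. Of all genes tested in bulk, 3.70% were called, 559 higher and 128 lower with RXRa. Of 6 shared striatal projection neuron markers 2 fell with RXRa (Bcl11b and Foxp1) and 0 rose, and their sum was 3228 to 3691 CPM with GFP and 2801 to 3216 CPM with RXRa. Of 4 D2 neuron markers Gpr6 fell, with a sum of 1439 to 1711 CPM with GFP and 1334 to 1486 CPM with RXRa, and 0 of 6 D1 neuron markers were called. Of 5 astrocyte markers 1 rose (Aqp4), and their sum was 3084 to 3420 CPM with GFP and 2806 to 3387 CPM with RXRa. Of 4 endothelial markers 1 rose (Kdr), with a sum of 159 to 220 CPM with GFP and 210 to 236 CPM with RXRa. Slc17a7, a glutamate transporter gene of cortical excitatory neurons, ran from 5.72 to 579 CPM over the 8 libraries. The 5 oligodendrocyte markers summed to 4270 to 4806 CPM with GFP and 2583 to 4466 CPM with RXRa. None of these 5 genes was called. The part of these cell types in the Drd1 and Drd2 values was not tested.

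The ratio of Drd1 to Drd2 within a library does not depend on how libraries are scaled. As log2 of the count ratio, its mean was -0.34 in D1 EGFP and -0.36 in D1 RXRa libraries (two-sided exact permutation p = 0.901). In D2 it was -5.82 with EGFP and -5.67 with RXRa (exact permutation p = 0.662), and in bulk 0.22 with GFP and 0.27 with RXRa (exact permutation p = 0.457, the smallest possible being 0.0286). Adjusted over these 3 tests each p is 0.901. With the background subtracted from both genes, the D1 means were 0.86 with EGFP and 0.43 with RXRa (exact permutation p = 0.0437). In D2 the difference after subtraction was 0.30 (exact permutation p = 0.459). Adjusted over all 5 tests of the ratio, the D1 value is at p = 0.219 by exact permutation. The ratio is one of counts, so its sign does not rank the genes per kb.

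**Figure D4:**
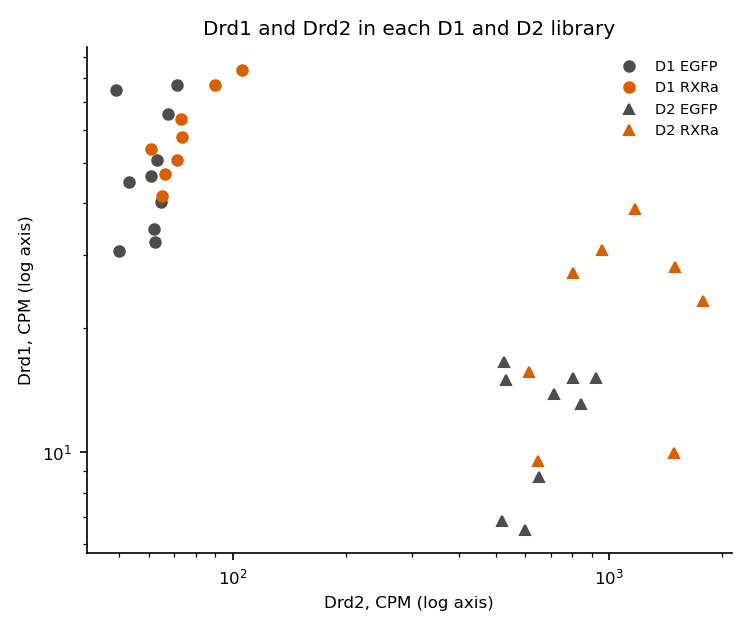
Drd1 against Drd2 in CPM (both axes log) in each of the 35 D1 and D2 libraries. Circles are D1, triangles D2, grey EGFP and orange RXRa. No D1 library has more than 106 CPM of Drd2, no D2 library has less than 519, and the D2 RXRa triangles spread from the control range to 38.5 CPM of Drd1 and 1776 CPM of Drd2.

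No receptor was called between females and males. In D1 the log2 difference of females over males ran from -0.16 for Drd2 to 0.22 for Drd4 (edgeR adjusted p = 0.868 and 0.787), where 4.38% of genes tested were called. In D2 it ran from -0.26 for Drd1 to -0.06 for Drd3 (edgeR adjusted p = 1.00 for both), where 4.24% were called. DESeq2 and limma voom called 0 receptors in these comparisons, and 0 had an unadjusted p under 0.05 by any of the 3 tools.

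The sequence before the start of Drd2 and Drd1 is shown because both genes were called higher in D2 with RXRa. Both calls were lost in some fits, as given above. RXR binds pairs of a short half-site, and its binding was not tested here. Sequences are from RefSeq on GRCm38.p6 and run 5′ to 3′ on the gene's strand. The Drd2 stretch ends just before its RefSeq start site at 49340403, which lies before the gene position given above. The Drd1 stretch ends just before the gene position given above, and its RefSeq start site at 54055658 lies within that gene. The half-site word AGGTCA was searched on both strands. Its variant GGGTCA was searched in the same way. So was AGTTCA, a further variant of this half-site, and so was the word GGTTCA. A match is in capitals.
Drd2, chr9:49340153-49340402, plus strand: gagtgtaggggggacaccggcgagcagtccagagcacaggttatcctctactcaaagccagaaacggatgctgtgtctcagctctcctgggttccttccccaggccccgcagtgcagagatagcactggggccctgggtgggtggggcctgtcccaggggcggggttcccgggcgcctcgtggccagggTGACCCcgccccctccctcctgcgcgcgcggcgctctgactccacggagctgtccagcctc
Drd1, chr13:54055706-54055908, minus strand: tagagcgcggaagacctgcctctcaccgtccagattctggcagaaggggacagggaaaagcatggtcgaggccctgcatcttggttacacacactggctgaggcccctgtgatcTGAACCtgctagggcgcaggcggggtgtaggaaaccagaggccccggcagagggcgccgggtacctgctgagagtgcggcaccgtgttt

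The Drd2 stretch held GGGTCA on the opposite strand, 61 bases before the RefSeq start site. The Drd1 stretch held GGTTCA on the opposite strand, 136 bases before its start site. The stretches shown held no second match. The whole 300-base window, which runs into the exon, held 2 matches for Drd1, 2 for Drd4 and 1 for Drd2, and the 250 bases before a second RefSeq start site of Drd1 held none. The stretch before Drd4 held AGTTCA 101 bases before the start, and those before Drd3 and Drd5 held none of the words. Such matches are common: of 32851 RefSeq windows of 300 bases around a start site, 43.7% held at least 1 and 13.1% at least 2. All 5 receptors matched an entry of the RefSeq table. A match is a description of the letters only.

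The genes whose levels ran most like a receptor's across the 35 D1 and D2 libraries were found by Pearson's r of log2(CPM + 0.5) over 20157 protein-coding genes, as a description, since all genes of a library share its depth and background. For Drd2 they were Ankk1 (r = 0.981), Ttc12 (0.963) and Ndnf (0.955). Ankk1 and Ttc12 are the next genes on chromosome 9, on the minus strand. Their near ends lie 7.02 kb and 28.8 kb beyond the annotated end of Drd2, and their start sites 18.8 kb and 78.0 kb beyond it. Ankk1 averaged 8.73 CPM in D1 and 38.1 CPM in D2, and Ttc12 34.9 and 124 CPM. For Drd1 they were Slc35d3 (0.957), Pdyn, which encodes the opioid precursor prodynorphin (0.944), and Sstr4, a somatostatin receptor gene (0.943). For Drd3 they were Galnt18 (0.867), Prkca (0.853) and Pdyn (0.801). For Drd4 they were Gse1 (0.814), Dab2ip (0.805) and Cmklr1 (0.797), and Drd5 averaged less than 1 CPM and was left out. The 35 libraries pool D1 and D2, so genes that differ between the populations can reach a high r through that difference. With each group's mean subtracted, other genes came first for Drd1 and Drd2, as given at the end.

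The genes that carry the receptor signal were read in the same fits. Of 30 genes of G proteins and effectors, 26 rose with RXRa in D2 over both sexes and 0 fell, beside 22.1% of all genes called. Their median log2 fold change was 0.47 beside -0.04 for all genes. The largest rises were Ppp1r1b, which encodes the striatal phosphatase inhibitor DARPP-32, at 0.73 (SE 0.269, edgeR adjusted p = 0.0479), Ppp3ca, a calcineurin subunit gene, at 0.69, and Pde1b, a phosphodiesterase gene, at 0.68. In D1 0 of the 30 were called, with a median of 0.21 beside -0.01 for all genes. In bulk, where 3.7% of genes were called, 2 of 30 fell, Gnai1, an inhibitory G protein gene, at -0.30 (SE 0.0457, edgeR adjusted p = 0.0132) and Prkacb, a catalytic subunit gene of protein kinase A, at -0.28 (SE 0.0580, edgeR adjusted p = 0.0342). The bulk median of the list was -0.13 beside -0.02 for all genes.

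Between the populations 0 of the 30 were called under EGFP, beside 0.121% of all genes, and under RXRa 7 were higher and 1 lower in D2, beside 8.38% of all genes; the difference between these results was not called for any gene. Arpp19, a regulated phosphatase inhibitor gene, was higher by 1.12 (SE 0.223, edgeR adjusted p = 0.00909), and Kcnj6, a G protein-gated potassium channel gene, was lower at -0.23 (SE 0.0582, edgeR adjusted p = 0.0301). Of 11 genes for receptor desensitisation and partners, 9 rose with RXRa in D2 and 0 fell, beside 22.1% of all genes called, with a median of 0.33 beside -0.04 for all genes. The largest rises were those of the calcium sensor gene Hpcal4 at 0.73, Gprasp1 at 0.67 and Caly, which encodes the D1 receptor partner calcyon, at 0.64. In bulk 1 of the 11 fell, beside 3.7% of all genes called, again Hpcal4, at -0.51 (SE 0.0569, edgeR adjusted p = 0.00688). Among genes of dopamine synthesis, packaging and clearance, the vesicular transporter gene Slc18a2 was called higher in D2 with RXRa at 0.19, and Maob fell, at -0.22. Slc18a2 had 4.33 to 5.99 CPM in bulk and 23.3 to 35.9 CPM over all D2 libraries, and the part of background in its D2 level was not tested. The dopamine transporter gene Slc6a3 was called lower at -0.19, but it had 0.241 to 0.636 CPM in bulk and 18.5 to 25.1 CPM over all D2 libraries, and the part of background in that value was not tested. In bulk Gch1, which makes a cofactor of dopamine synthesis, rose by 0.86 (SE 0.179, edgeR adjusted p = 0.0352). The X-linked monoamine oxidase genes Maoa and Maob were higher in females in both populations, Maob by 0.94 in D1 and 1.05 in D2.

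Markers moved beside these lists in D2 with RXRa, where 22.1% of all genes were called. Of the 4 D2 neuron markers 3 rose (Adora2a, Gpr6 and Sp9), of 6 shared striatal projection neuron markers 5 rose, and of 6 D1 neuron markers 3 rose (Chrm4, Slc35d3 and Tac1) and Eya1 fell. The D2 neuron markers summed to 242 to 835 CPM with EGFP and 241 to 1292 CPM with RXRa, and the D1 neuron markers to 119 to 149 and 109 to 203 CPM. Most of the D1 neuron sum with EGFP, of median 128 CPM, was Eya1, so the sum says little of the other markers. Median Eya1 was 88.1 CPM in D2 EGFP, 75.7 CPM in D2 RXRa and 85.8 CPM in D1 EGFP libraries. In bulk Eya1 had 5.58 to 7.41 CPM, and the part of background in its D2 values was not tested. The shared markers summed to 1303 to 1910 CPM with EGFP and 1428 to 3263 CPM with RXRa. Every call of this contrast, these lists and markers included, was lost in the fit with the density covariate and in the fit without D2 RXRa female 4. The part of cell composition and of background in the Drd1 and Drd2 values was not tested beyond these fits.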

How the data were processed

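The authors deposited raw counts for each gene, as whole numbers. The submitters' processing notes name GRCm38, FastQC, Trimmomatic, HISAT2, Picard, featureCounts and Subread, with no roles, order or versions. Which annotation was counted, and how strand and introns were handled, is not given in the sources used here. Per the labels' protocols, bulk RNA was selected for poly(A), while D1 and D2 RNA was total RNA with ribosomal RNA removed, in a stranded low-input kit.

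Groups came from the labels. For 1 of 44 libraries title and vector label disagree, so it entered no comparison. Counts were tested with edgeR 4.0.16 in R 4.3.3 (quasi-likelihood test, filterByExpr, TMM) over all genes, bulk alone and the 35 assigned D1 and D2 libraries in 1 fit of 8 groups, in 14 contrasts with Benjamini-Hochberg adjustment and a threshold of 0.05. The 2 vector entries were left out. Both sexes were weighted equally. SE is the log2 fold change divided by the square root of F. The scripts were tested on simulated data. Alternatives were RLE size factors, library totals, other filters, DESeq2 1.42.0, limma voom 3.58.1, a replicate block, silent-gene density as a covariate, and leaving out each library. Exact permutation tests went through all choices of vector labels in Python 3.11.15 with NumPy 2.4.6, within sex in D1 and D2 and over the 8 libraries in bulk. Symbols and positions are from GENCODE M21, which held 55394 of the 55487 identifiers (93 did not match); of the D2 markers listed, Gpr52 was not found in it. Across 72 pairs of replicates the chi-square per degree of freedom was 1.79 to 63.6, so no pair agreed within sampling noise.

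Named genes are the 5 receptors, up to 3 called genes with the largest rise and 3 with the largest fall of each list at a mean of at least 1 CPM, and the 3 nearest patterns; a few results that fall under this rule or the lists are not reported here. The members, lists and alternatives were chosen with earlier results of these data known. Intervals were not computed, and low counts carry counting error.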

Additional observations from a re-analysis of the deposited data

Results flagged for a closer look

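In 4 of the 60 sets of values tested, 50 of receptor levels by group and 10 of Drd1 to Drd2 ratios, 1 library stood apart from the others by Dixon's test at the 95% level, which chance does in about 1 in 20 groups. Drd1 was 6.84 CPM in D2 EGFP male 1, where the other 4 had 13.1 to 15.1 CPM. Drd4 was 2.12 CPM in D1 EGFP female 2, against 2.31 to 2.35 CPM in the others. Drd5 was 0.846 CPM in D1 RXRa female 2, against 0.552 to 0.602 CPM in the others. The log2 ratio of Drd1 to Drd2 was 0.10 (0.0957) in bulk GFP 2, against 0.26 to 0.29 in the other 3. The Drd4 and Drd5 libraries lay within the range of silent genes.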

How the results depend on the processing

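Under the alternatives, the calls of Drd1 and Drd2 between D2 and D1 held in every setting tried. Log2 fold changes for D2 RXRa over both sexes with silent-gene density as a covariate were 0.51 for Drd1 and 0.26 for Drd2, neither called, and -0.0026 for Drd3; in males alone Drd2 was at -0.018. With library totals, Drd3 was at -0.081 and Drd5 at -0.15 in D2. With DESeq2, Drd4 was at 0.00076 in D1. With RLE size factors, Drd3 between D2 and D1 under EGFP was at -0.28 and not called. None of the values that turned sign was called. Without 1 library each, the ranges in D2 with RXRa were 0.74 to 1.03 for Drd1, 0.61 to 0.86 for Drd2, -0.20 to 0.0056 for Drd4 and -0.10 to 0.16 for Drd5. They were -0.31 to -0.27 for Drd3 between D2 and D1 under EGFP, -0.13 to 0.063 for Drd4 in D1, -0.098 to 0.089 for Drd3 in bulk, and -0.20 to 0.026 for Drd2 in D2 females over males. For the log2 ratio of Drd1 to Drd2, RXRa minus control, they were -0.086 to 0.079 in D1 and -0.011 to 0.37 in D2, and with background subtracted the differences were -0.43 and 0.30. The log2 of D2 over D1 levels under EGFP with background subtracted was 4.62 for Drd2 and -0.81 for Drd3, a widening that follows from the subtraction. Set against merged exons in place of gene bodies, the median ratios to silent-gene density in D1 and D2 were 14.9 and 177 for Drd2, 24.1 and 19.6 for Drd3, 0.400 and 0.350 for Drd4, 0.138 and 0.124 for Drd5, and 8.68 and 2.41 for Drd1; silent-gene counts hardly follow exon length. The cause of the other changes was not tested.

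Counts over all genes moved by more than 1.5 times in D2 with RXRa (9683, and 0 to 14763 without 1 library). They did so for D2 against D1 under RXRa (3677, and 118 to 9889 without 1 library) and under EGFP (53, and 90 with DESeq2). In bulk the count was 687, with 1619 by DESeq2 and 9 to 1016 without 1 library. For females over males in D2 it was 1861, and 979 with the filter at a mean of at least 1 CPM.

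Replicate numbers did not pair the libraries: same-numbered pairs correlated between -0.53 and 0.49 in bulk and between -0.37 and 0.58 in D1 and D2, with 0 of 4 and 4 of 15 best with their own number. With the replicate block, Drd1 and Drd2 in D2 with RXRa were at 0.80 and 0.75 (edgeR adjusted p = 0.0306 and 0.0129) and Drd5 at -0.020, the bulk count of calls went from 687 to 0 and that of D2 against D1 under RXRa from 3677 to 236, and 0 calls of a receptor were lost. Depth limits Drd4, with 4 to 16 counts in bulk, and Drd5.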

Other observations

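The D2 library whose title and vector label disagree had 649 CPM of Drd2, 17.6 of Drd1, 55.8 of Drd3, 2.12 of Drd4 and 0.544 of Drd5. Its ratios to silent-gene density were 20.1 for Drd2, 8.18 for Drd1 and 1.70 for Drd3.

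With each group's mean subtracted, the genes that ran most like a receptor across the 35 libraries were others than those named above for Drd1 and Drd2. For Drd1 they included Atp1b1 (r = 0.961), a sodium pump subunit gene, and Slc25a3 (0.957), the mitochondrial phosphate carrier gene. Atp1b1 averaged 110 CPM in D1 and 161 in D2. For Drd2 they were Tfdp1 (0.901), Dclk2 (0.899) and Per3 (0.892), and for Drd3 Galnt18 (0.772), Usp29 (0.762) and Kcnh1 (0.748). These are descriptions over libraries that share depth and background.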
